A study of Mus musculus with 4 samples.

Results

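The genes examined were Lpl, Cd36, Slc27a1, Slc27a4, Fabp4, Fabp5 and Acsl1, 7 genes whose products release, take up, bind and activate fatty acids. Open chromatin around them was taken as every ATAC-seq peak with its summit within 50 kb of an annotated transcription start site (TSS) of the gene. Peaks of the 4 libraries that covered the same place were joined into sites, which gave 91 sites near these genes out of 102602 in the genome. The cells were im-scWAT cells, stromal vascular cells from the subcutaneous white adipose tissue (scWAT) of 5-week-old mice that had been immortalised with the SV40 large T antigen and selected with puromycin. The mice were Jmjd1a +/+ (WT) or Jmjd1a HY/HY (HY). JMJD1A removes methyl groups from lysine 9 of histone H3, and the HY allele carries a histidine-to-tyrosine change that abolishes this activity. Nuclei were taken before differentiation (day 0, D0) and after differentiation towards beige adipocytes (day 8, D8). The D8 cells of both genotypes had been induced for 2 days with insulin (5 μg/ml), T3 (1 nM), rosiglitazone (0.5 μM), indomethacin (0.125 mM), 3-isobutyl-1-methylxanthine (0.5 mM) and dexamethasone (2 μg/ml), and the first 3 of these agents had been kept for 6 days more. Each combination of genotype and day was represented by 1 library, so WT and HY cells are separate cultures and no difference below has a replicate check.

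Fatty acids reach adipocytes largely as triglyceride in circulating lipoproteins. Lipoprotein lipase, the product of Lpl, is secreted by adipocytes and muscle cells and frees the fatty acids at the vessel wall. CD36 and the fatty acid transport proteins FATP1 (Slc27a1) and FATP4 (Slc27a4) help them across the plasma membrane, the binding proteins FABP4 and FABP5 carry them in the cytosol, and acyl-CoA synthetases such as ACSL1 trap them as acyl-CoA for storage or oxidation. Several of these genes are textbook targets of the nuclear receptor PPARγ, which rosiglitazone activates, and of C/EBP factors during fat cell formation.

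WT cells had 71523 peaks at D0 and 41228 at D8, and HY cells had 77994 and 48964. The value given for each peak is its summit pileup, the number of sequence tags that overlap at the summit, solved as a whole number from the deposited fold enrichment and p-value. Read totals are unknown, and the lowest local background in each list, 0.659, 0.531, 0.708 and 0.494 tags in the same order, served as the relative depth. Ratios between libraries were scaled by it and carry 95% intervals that cover counting error only. Because a summit is the highest point of its peak, these intervals are somewhat too narrow. A site without a peak in a library has no measured pileup there. It was given the smallest pileup that the list would have called at the local background of the other library, so its ratio is a bound that holds where the local background was no higher than that, and its interval treats that pileup as if it had been counted. Promoters, taken as 1000 bp upstream to 100 bp downstream of a TSS, carried a peak in 5 of 12 adipocyte marker genes at D0 and 9 at D8 in WT cells, and in 6 and 9 in HY cells. Among these 12, Ucp1, Lep and Cfd had no promoter peak in any library. Of all protein-coding genes, 53.4% had one at WT D0, 49.5% at WT D8, 54.3% at HY D0 and 50.4% at HY D8. Of 10 preadipocyte markers, 8 and 4 had one in WT cells and 6 and 4 in HY cells. Macrophage markers had a promoter peak in at most 1 of 8 genes, liver markers in 0 of 6, skeletal muscle markers in at most 2 of 6, and endothelial markers in 4 of 8 in WT D0, 3 in HY D0, 0 in WT D8 and 1 in HY D8. The macrophage gene with a promoter peak was Lyz2, at D0 in both genotypes, and the endothelial ones were Pecam1, Kdr, Tek and Vwf in WT D0, Kdr, Tek and Vwf in HY D0 and Kdr in HY D8. The defining markers Ptprc and Emr1 of macrophages and Cdh5 of endothelium had none in any library. The part of these shifts in the results below was not tested. In such bulk nuclei, a change in the share of cells that carry an open site and a change in accessibility per cell cannot be told apart.

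Differentiation was accompanied by new open sites around Lpl, Cd36, Fabp4, Fabp5 and Acsl1 in both genotypes. Around the transporter genes Slc27a1 and Slc27a4 there were none, which is the commoner state: 27.7% of all protein-coding genes had such a site in both genotypes within 50 kb of a TSS. In WT cells 38 of the 73 sites open on either day had a peak at D8 only (52.1%), called opened here, while 12.4% of sites across the genome did. In HY cells 41 of 85 sites opened (48.2%), against 14.0% across the genome. The reverse pattern, a peak at D0 only, was found at 9 WT sites (12.3%, genome 52.9%) and 15 HY sites (17.6%, genome 49.4%). These counts of closed sites depended on the settings: they were 19 and 24 where peaks had to share at least 50% of both to be joined, and in HY cells 6 with lists of equal length and 9 within 20 kb. Slc27a1 and Slc27a4 departed from this pooled count: neither had an opened site, and their closed sites, 5 of 13 (38.5%) in WT and 7 of 17 (41.2%) in HY cells for Slc27a1 and 3 of 9 and 3 of 10 for Slc27a4, were below the shares of the genome.

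Sites opened in both genotypes numbered 31 of 91 (34.1%), against 5966 of 102602 in the genome (5.81%). They comprised 11 of 16 sites at Cd36, 8 of 14 at Fabp4, 6 of 13 at Lpl, 4 of 14 at Acsl1, 2 of 6 at Fabp5 and none of 17 at Slc27a1 or of 11 at Slc27a4. Their D8 summits were tall, with a median of 24 tags in WT and 23 in HY cells where the opened sites of the genome had medians of 12 and 13. The local background was also higher near these genes. Its median over all sites near them with a D8 peak was 1.94 tags in WT and 1.87 in HY cells. Over all peaks of the D8 lists it was 1.19 and 0.981. Of the 31, 5 lay at a promoter of the gene, 10 in its introns and 15 outside genes, and for 24 the nearest protein-coding TSS was that of the gene itself. Sites open in all 4 libraries numbered 22 (24.2%, genome 23.7%), and 13 of these belonged to the 2 transporter genes, whose neighbourhoods are dense in other promoters. Neighbouring sites are not independent: the 11 opened sites of Cd36 fell into 6 groups when summits more than 3 kb apart were separated, and the 8 of Fabp4 into 5.

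**Figure D1:**
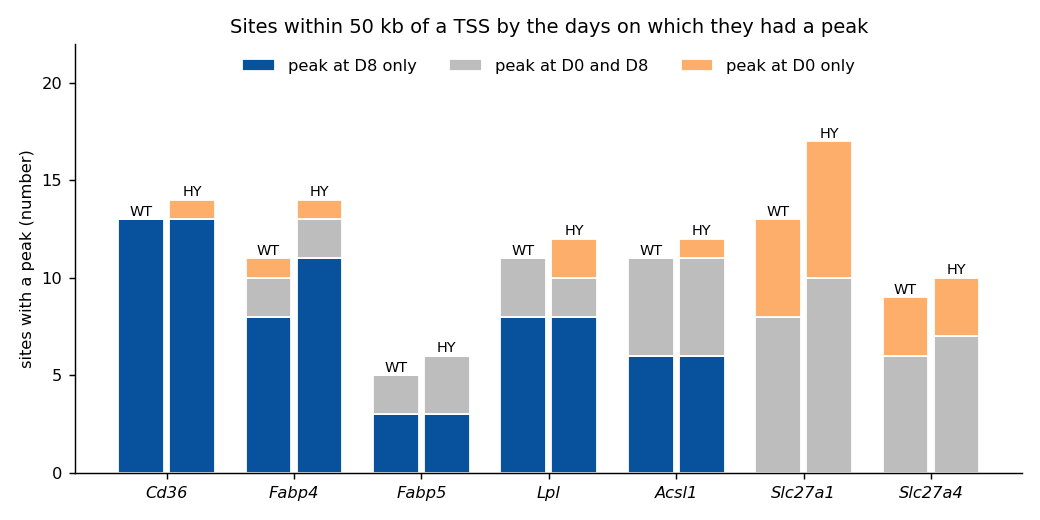
Number of sites within 50 kb of a TSS of each gene (y axis) that had a peak at D8 only, on both days or at D0 only, with a bar for WT and a bar for HY. Cd36 stands at 13 D8-only sites in each genotype, and Slc27a1 and Slc27a4 have none.

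Scaled by depth, 27 WT sites (37.0%, genome 7.87%) and 31 HY sites (36.5%, genome 10.2%) were at least 2-fold higher at D8, most of them as lower bounds. At least 2-fold lower values were found at 3 WT sites (4.11%, genome 19.3%) and 7 HY sites (8.24%, genome 18.8%). Scaled by the median pileup ratio instead, the lower sites numbered 0 and 4. Where both libraries had a peak, 3 WT and 2 HY sites were higher and 1 and 3 lower. Among the 31 sites opened in both genotypes, the bound on the D8 to D0 ratio ran from 1.42 to 4.96 in WT cells (median 2.82) and from 1.43 to 5.73 in HY cells (median 2.98). The choice of these sites fixed the direction of the ratio.

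**Figure D2:**
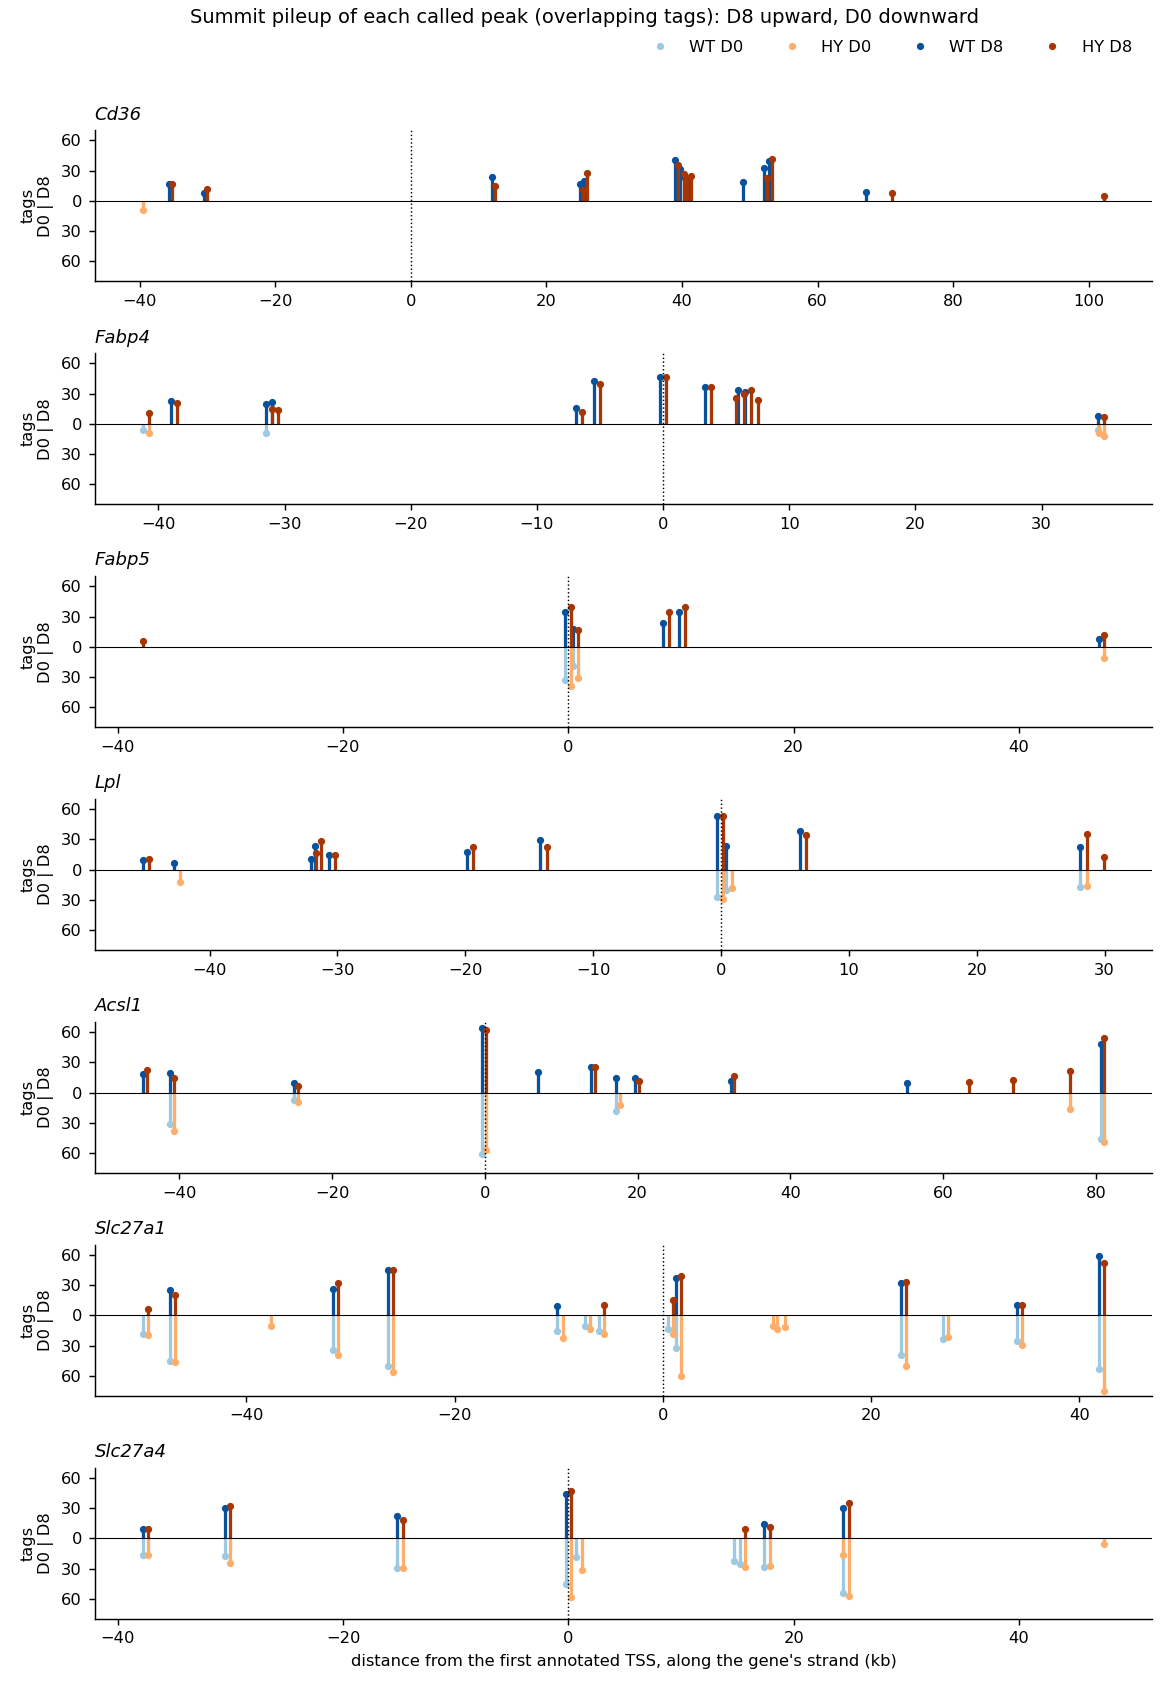
Summit pileup of every called peak (y axis, overlapping tags) along each gene, with D8 drawn upward and D0 downward, against distance in kb from the first annotated TSS along the strand of the gene (x axis). WT and HY stems at the same place are drawn slightly apart. Cd36 has stems almost entirely above the line, Fabp4 has most of them above it, and Slc27a1 and Slc27a4 have them on both sides.

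Lpl, on chromosome 8 with its first TSS at 71404390 (NCBIM37, the mm9 assembly), had an open promoter on both days that was taller at D8. The promoter summit, 101 bp upstream of the TSS, held 27 tags at WT D0, 53 at WT D8, 29 at HY D0 and 53 at HY D8. The 2 genotypes thus had nearly the same value on each day, and the D8 value was the higher in both, by 2.44-fold in WT (interval 1.51 to 4.03) and 2.62-fold in HY cells (1.63 to 4.27). The local background rose too, from 2.68 tags at D0 to 6.22 at D8 in WT and from 2.29 to 6.27 in HY cells. The deposited fold over that background was 7.6 at D0 and 7.48 at D8 in WT, and 9.13 and 7.42 in HY cells. Relative to its surroundings the promoter summit was therefore not higher at D8. A second summit 465 bp downstream, in an intron, held 20, 23 and 18 tags in WT D0, WT D8 and HY D0 and had no separate peak in HY D8, where the promoter peak was the nearest, 178 bp away. Around this promoter 6 sites opened in both genotypes. The tallest was intronic, 3830 bp before the internal TSS at 71414643, with no peak at D0, 38 tags at WT D8 and 34 at HY D8. This is a rise of at least 3.37-fold (1.78 to 6.73) in WT and 3.25-fold (1.72 to 6.41) in HY cells. Upstream of the gene, the site at 13900 bp held 29 and 22 tags at D8, that at 19634 bp held 18 and 22, and that at 31516 bp, which is nearer to the TSS of Ints10, held 23 and 28, in WT and HY order, all without a D0 peak. The bounds on their rise lay between 3.17 and 4.0 in WT and between 3.5 and 3.94 in HY cells. Downstream of the gene, a site 18097 bp from the internal TSS was open in all 4 libraries, with 17 tags at WT D0, 22 at WT D8, 16 at HY D0 and 35 at HY D8. Its D8 to D0 ratio was 1.61 in WT (0.815 to 3.22) and 3.13 in HY cells (1.69 to 6.06), and the ratio of HY to WT at D8, 1.71 (0.975 to 3.06), was within counting error of 1. The promoter site and the tallest opened site read as follows on the plus strand, with capitals for matches to the C/EBP letters defined further on.
Lpl promoter, chr8:71404189-71404389: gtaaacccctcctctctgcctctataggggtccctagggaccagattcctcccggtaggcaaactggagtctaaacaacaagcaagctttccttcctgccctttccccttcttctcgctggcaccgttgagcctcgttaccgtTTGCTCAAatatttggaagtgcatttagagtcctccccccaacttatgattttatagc
Lpl intron, chr8:71410713-71410913: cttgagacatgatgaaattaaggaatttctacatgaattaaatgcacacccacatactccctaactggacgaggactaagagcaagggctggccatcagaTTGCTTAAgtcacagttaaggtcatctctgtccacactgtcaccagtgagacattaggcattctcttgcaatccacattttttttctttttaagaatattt

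Cd36, on the minus strand of chromosome 5, had almost no called peaks at D0 and the most opened sites of the 7 genes. Of the 16 sites, none had a peak in WT D0 and 1 had a peak in HY D0, a low summit of 9 tags 39822 bp upstream of the first TSS whose nearest gene was Gnat3. At D8, 13 sites were open in each genotype and 11 of these were shared. Only 2 of the 22367 protein-coding genes, Cd36 among them, had 11 or more such sites within 50 kb (0.00894%). The other was Fabp12, whose window overlaps that of Fabp4. Sites were counted around every TSS of a gene, so genes with widely spaced TSSs, Cd36 among them, were searched over a longer stretch than genes with a single TSS such as Fabp4. The annotation gives Cd36 3 TSSs. No peak lay at the promoter of the most upstream, at 17394777, in any library, and the D8 promoter peaks stood at the internal TSSs at 17355610 and 17341714.

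At the TSS at 17341714 the summit 28 bp downstream held 40 tags at WT D8 and 42 at HY D8, with no peak on D0 in either genotype. The rise was at least 3.55-fold in WT (1.89 to 7.06) and 4.30-fold in HY cells (2.30 to 8.52). A second peak 726 bp upstream of the same TSS held 33 and 23 tags. At the TSS at 17355610 the summit 11 bp downstream held 41 and 36 tags, and 3 further sites followed within the next 2 kb of the intron. Of these the tallest, 844 bp downstream, held 32 and 27 tags. The genotypes did not separate at any of these D8 summits: the HY to WT ratio was 1.13 (0.714 to 1.78) at the first, 0.749 (0.420 to 1.31) at the second, 0.943 (0.586 to 1.51) at the third and 0.906 (0.522 to 1.56) at the intronic site. Sites farther from a promoter also opened. In the introns, that 13438 bp before the TSS at 17355610 held 20 tags at WT D8 and 28 at HY D8, and that 12164 bp after the first TSS held 24 and 15. That 35510 bp upstream of the first TSS held 17 tags in both genotypes at D8, and that 30284 bp upstream held 8 in WT and 12 in HY cells. Printed below are the exon-free part of the promoter window, which holds a match to the PPAR:RXR letters, and the intronic site 844 bp downstream, the tallest intronic one in WT D8, which holds a C/EBP match, both in capitals and on the plus strand.
Cd36 promoter, chr5:17341715-17341786: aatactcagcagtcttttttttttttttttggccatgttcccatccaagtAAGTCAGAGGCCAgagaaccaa
Cd36 intron, chr5:17354666-17354866: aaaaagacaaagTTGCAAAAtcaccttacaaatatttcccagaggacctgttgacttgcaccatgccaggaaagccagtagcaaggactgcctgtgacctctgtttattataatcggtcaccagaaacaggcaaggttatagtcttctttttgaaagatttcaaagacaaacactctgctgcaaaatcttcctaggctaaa

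Slc27a1, which encodes FATP1, the transport protein of insulin-responsive tissues, had no opened site in either genotype. It lies on chromosome 8 with its TSS at 74092826, among 7 other protein-coding genes with a TSS within 50 kb. No summit fell in its promoter window as annotated. The nearest sites were intronic, and whether a TSS that the annotation lacks lies at one of them was not tested. At 717 bp downstream of the TSS the summit held 13 tags at WT D0, 18 at HY D0 and 15 at HY D8, with no peak at WT D8. At 1480 bp it held 32 tags at WT D0, 37 at WT D8, 60 at HY D0 and 39 at HY D8. The day ratio at the latter was 1.44 in WT (0.870 to 2.38) and 0.931 in HY cells (0.606 to 1.42), so neither went beyond counting error. The HY D0 summit held the most tags, but after scaling by depth it was close to HY D8. Its ratio to WT D0 was 1.75 (1.12 to 2.77), and at D8 the ratio of HY to WT was 1.13 (0.703 to 1.83). With 33 sites near the 7 genes compared in this way at D0, a single interval that leaves out 1 does not show a genotype difference. Closed sites were 5 in WT and 7 in HY cells, and 2 were closed in both. These held 23 and 21 tags at D0, 27118 bp downstream in an intron of Pgls, and 10 and 13 tags, 7269 bp upstream in Nxnl1, in WT and HY order. A site 47130 bp upstream was open in all 4 libraries with 45, 25, 46 and 20 tags in WT D0, WT D8, HY D0 and HY D8, lower at D8 in both genotypes by ratios of 0.690 (0.405 to 1.15) and 0.623 (0.349 to 1.07).

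Slc27a4 encodes FATP4, a transport protein with acyl-CoA synthetase activity. It lies on chromosome 2 with its first TSS at 29658154 and had a promoter that was open to a like degree in all 4 libraries. The summit 2 bp from the TSS held 45 tags at WT D0, 44 at WT D8, 58 at HY D0 and 47 at HY D8. The day ratio was 1.21 in WT (0.783 to 1.88) and 1.16 in HY cells (0.773 to 1.73). A peak 942 bp downstream, in an intron, was present at D0 with 19 tags in WT and 31 in HY cells and absent at D8 in both. Its D8 to D0 ratio was at most 0.523 (0.198 to 1.25) in WT and at most 0.416 (0.174 to 0.895) in HY cells. This was the only site of Slc27a4 closed in both genotypes, and none opened. The largest rise near this gene was 30259 bp upstream in an intron of Trub2, where 18 tags at WT D0, 30 at WT D8, 24 at HY D0 and 32 at HY D8 gave ratios of 2.07 (1.12 to 3.94) and 1.91 (1.09 to 3.39). A site 13284 bp from the nearest TSS, in an intron of Urm1, held 28, 14, 27 and 11 tags in the same order and was lower at D8 in both genotypes by ratios whose intervals included 1.

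Fabp4, on the minus strand of chromosome 3 with its TSS at 10208576, is among the most abundant products of mature adipocytes. Its promoter had no peak at D0 and the same tall summit, 46 tags 21 bp upstream of the TSS, in WT D8 and HY D8. This was at least 2.72-fold higher than D0 in WT (1.59 to 4.80) and 3.14-fold higher in HY cells (1.83 to 5.53). An upstream site 5254 bp from the TSS held 43 tags at WT D8 and 40 at HY D8, again without a D0 peak, a rise of at least 3.81-fold (2.05 to 7.55) and 4.41-fold (2.31 to 8.98). Inside the gene a summit 3575 bp downstream held 37 tags in each genotype, and a summit 6744 bp downstream, beyond the end of the gene and nearer to the TSS of Fabp9, held 32 and 34. Tags were dense over the gene and its downstream flank at D8: the local background at the intronic summit was 10.8 tags in WT and 10.7 in HY cells, where the median over all peaks of the lists was 1.19 and 0.981. A D0 peak would have needed 27 and 30 tags to be called against such a background, so the bounds there, 1.70-fold (1.01 to 2.90) and 1.77-fold (1.06 to 2.96), are low ones. Farther out the background was lower, for example 1.57 and 0.972 tags 31205 bp upstream. The only Fabp4 site open in all 4 libraries lay 34719 bp downstream and was low, with 6, 8, 12 and 7 tags in WT D0, WT D8, HY D0 and HY D8. In all, 17 of the 22367 coding genes (0.076%) had 8 or more sites opened in both genotypes, the neighbours Fabp9 and Fabp12 with shared sites among them. As many as Lpl were found at 78 genes (0.349%), as many as Acsl1 at 466 (2.08%) and as many as Fabp5 at 2411 (10.8%). Of the sequences of the promoter and the upstream site, given on the plus strand, neither held a PPAR:RXR or C/EBP match within 100 bp of the summit.
Fabp4 promoter, chr3:10208577-10208697: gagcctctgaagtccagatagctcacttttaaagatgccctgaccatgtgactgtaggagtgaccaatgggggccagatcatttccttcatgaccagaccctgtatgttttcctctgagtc
Fabp4 upstream site, chr3:10213730-10213930: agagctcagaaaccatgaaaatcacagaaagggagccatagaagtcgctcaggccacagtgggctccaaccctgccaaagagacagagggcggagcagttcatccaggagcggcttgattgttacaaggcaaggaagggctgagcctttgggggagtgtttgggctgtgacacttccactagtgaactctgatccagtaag

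Fabp5 encodes a second cytosolic binding protein that is expressed in many cell types. Its promoter on chromosome 3, with the first TSS at 10012548, was open throughout. The summit 16 bp upstream of the TSS held 33 tags at WT D0, 34 at WT D8, 39 at HY D0 and 39 at HY D8, and the day ratios of 1.28 (0.769 to 2.13) and 1.43 (0.895 to 2.29) were within counting error. A summit 575 bp downstream held 19, 18, 31 and 17 tags in the same order, with ratios whose intervals also included 1. Downstream of the gene a pair of sites opened in both genotypes. A low site 38026 bp upstream, with 6 tags, opened in HY cells alone. Of the pair, that 8613 bp from the TSS held 24 tags at WT D8 and 34 at HY D8, at least 2.48-fold (1.19 to 5.45) and 3.04-fold (1.63 to 5.90) above D0. That 10017 bp from the TSS held 34 and 39 tags, at least 3.52-fold (1.78 to 7.46) and 3.49-fold (1.91 to 6.69) above D0. Fabp5 thus paired a promoter open on both days with a new downstream open region, while Fabp4 gained both. The taller of the pair reads as follows on the plus strand and held no PPAR:RXR or C/EBP match.
Fabp5 downstream site, chr3:10022522-10022722: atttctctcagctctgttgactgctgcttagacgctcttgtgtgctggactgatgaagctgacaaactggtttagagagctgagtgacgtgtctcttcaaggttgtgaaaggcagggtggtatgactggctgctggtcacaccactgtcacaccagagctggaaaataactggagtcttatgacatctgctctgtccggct

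Acsl1, on chromosome 8 with its first TSS at 47556395, encodes a synthetase that activates long-chain fatty acids. It combined a tall promoter summit, present on both days, with new sites in its introns. The promoter summit 78 bp upstream of the TSS held 61 tags at WT D0, 64 at WT D8, 57 at HY D0 and 62 at HY D8. The day ratio was 1.30 in WT (0.903 to 1.88) and 1.56 in HY cells (1.07 to 2.27), and only the latter interval lay above 1. Of its 4 sites opened in both genotypes, that 5809 bp before the internal TSS at 47576328 was the tallest, with 25 tags at D8 in each genotype, at least 2.82-fold (1.34 to 6.35) and 2.98-fold (1.44 to 6.52) above D0. A site 44532 bp upstream of the first TSS held 18 and 22 tags. At the internal TSS at 47576328 itself a summit 43 bp upstream held 14 tags at WT D8 and 11 at HY D8, and a further intronic site, 10648 bp downstream of the internal TSS at 47578186, held 11 and 16. These last sites are shallow. The intervals of the first included 1 in both genotypes, and that of the second did so in WT cells. At the internal TSS at 47612140 a peak of 9 tags was called in WT D8 alone. Upstream, a site at 40962 bp was open in all 4 libraries and lower at D8, with 31 tags at WT D0, 19 at WT D8, 38 at HY D0 and 14 at HY D8. Its ratios were 0.761 (0.406 to 1.39) in WT and 0.528 (0.264 to 0.996) in HY cells. Another site open in all 4, 24671 bp upstream, held 7, 9, 9 and 6 tags. The 2 intronic sites printed here hold 2 C/EBP matches and a PPAR:RXR match, in that order, in capitals on the plus strand.
Acsl1 intron, 5809 bp before the internal TSS, chr8:47570419-47570619: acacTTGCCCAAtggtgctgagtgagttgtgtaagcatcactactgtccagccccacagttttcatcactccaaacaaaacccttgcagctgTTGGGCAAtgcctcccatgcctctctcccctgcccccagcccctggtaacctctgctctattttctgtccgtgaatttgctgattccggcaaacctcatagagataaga
Acsl1 intron, 10648 bp after an internal TSS, chr8:47588734-47588934: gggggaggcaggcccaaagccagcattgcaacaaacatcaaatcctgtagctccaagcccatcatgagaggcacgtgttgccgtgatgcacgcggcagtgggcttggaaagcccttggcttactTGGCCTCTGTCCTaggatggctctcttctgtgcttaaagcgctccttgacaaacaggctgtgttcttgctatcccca

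By their tallest promoter peak, 6 genes fell into 3 kinds, and Slc27a1 had no peak at its annotated promoter in any library. The first kind had no D0 peak and was tall at D8 (Cd36 and Fabp4). The second was open on both days and held more tags at D8, though no higher fold over local background (Lpl). The third was open on both days with D8 to D0 ratios of 1.16 to 1.56 (Fabp5, Acsl1 and Slc27a4). Among all protein-coding genes with a promoter peak on either day, 4.41% in WT and 4.33% in HY cells had it at D8 only.

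**Figure D3:**
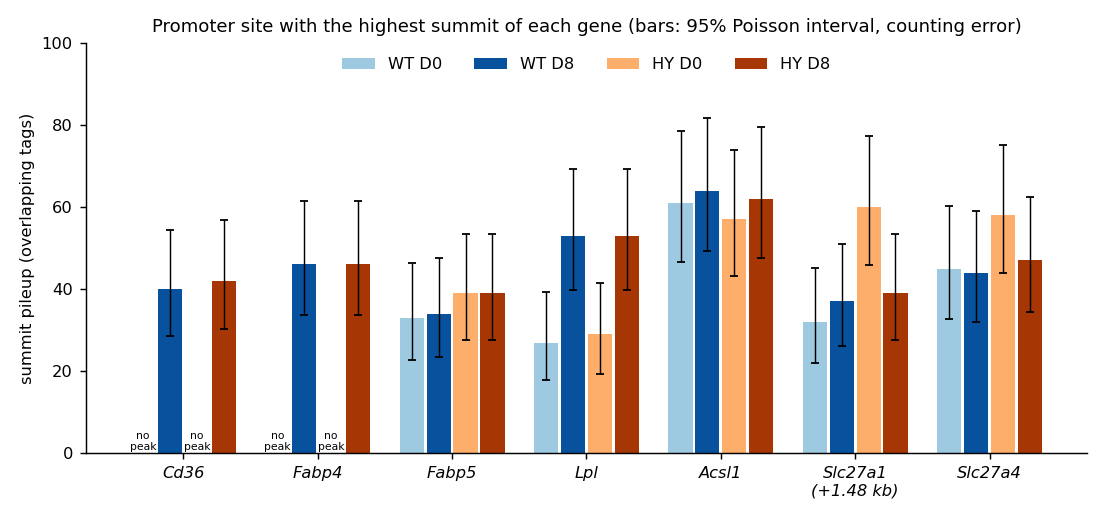
Summit pileup (y axis, overlapping tags) at the promoter site with the highest summit of each gene, and for Slc27a1, which had none, at the site 1.48 kb downstream of its TSS. Bars are the 4 libraries and whiskers are exact 95% Poisson intervals of the single count. Cd36 and Fabp4 have no D0 bar, and Lpl rises from 27 and 29 tags to 53 in both genotypes.

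The genotypes were compared site by site on each day. At D8, 79 sites were open in either genotype. HY cells alone had 15 of these (19.0%, genome 26.7%) and WT cells alone 9 (11.4%, genome 10.1%). With all 4 lists shortened to 41228 peaks the counts were 8 and 10, so this balance turned with the length of the lists. The HY-only summits held 5 to 26 tags (median 11) and the WT-only summits 7 to 23 (median 11), and 3 and 2 of them had a peak of the other genotype within 500 bp. No site was at least 2-fold higher in HY cells at D8, against 3.48% across the genome, and none at least 2-fold lower, against 1.39%. At the 55 sites open in both genotypes at D8, the HY to WT ratio ran from 0.671 to 1.71 with a median of 1.07, and its interval included 1 at each of them. The 31 sites opened in both genotypes had the same median, 1.07, as the 5966 such sites of the genome, and a range of 0.671 to 1.61. The intervals were wide, for example 0.586 to 1.51 at a Cd36 promoter and 0.698 to 1.65 at the Fabp4 promoter, and do not show that the genotypes were equal.

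At D0, when Cd36 and Fabp4 had few called peaks to compare, 46 sites were open in either genotype. HY cells alone had 11 (23.9%, genome 22.4%) and WT cells alone 2 (4.35%, genome 13.1%). With lists of 41228 peaks each the counts were 2 and 2, so the excess in HY cells was lost at that length. The 11 held 6 to 17 tags, and 4 of them were at Slc27a1. Of the 46, 2 were at least 2-fold higher in HY cells (4.35%, genome 4.52%), both bounds at sites without a WT peak, and 1 was at least 2-fold lower (2.17%, genome 2.83%). None of these 3 had an interval that left out 1. They were 42572 bp upstream of Lpl with 12 tags in HY D0, 47278 bp downstream of Fabp5 with 11, and 10602 bp from a TSS of Slc27a4 with 22 tags in WT D0, and were chosen after their values were seen. The last lay 173 bp from a HY D0 peak of 28 tags. At the 33 sites open in both genotypes at D0 the ratio ran from 0.621 to 1.86 with a median of 1.08.

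**Figure D4:**
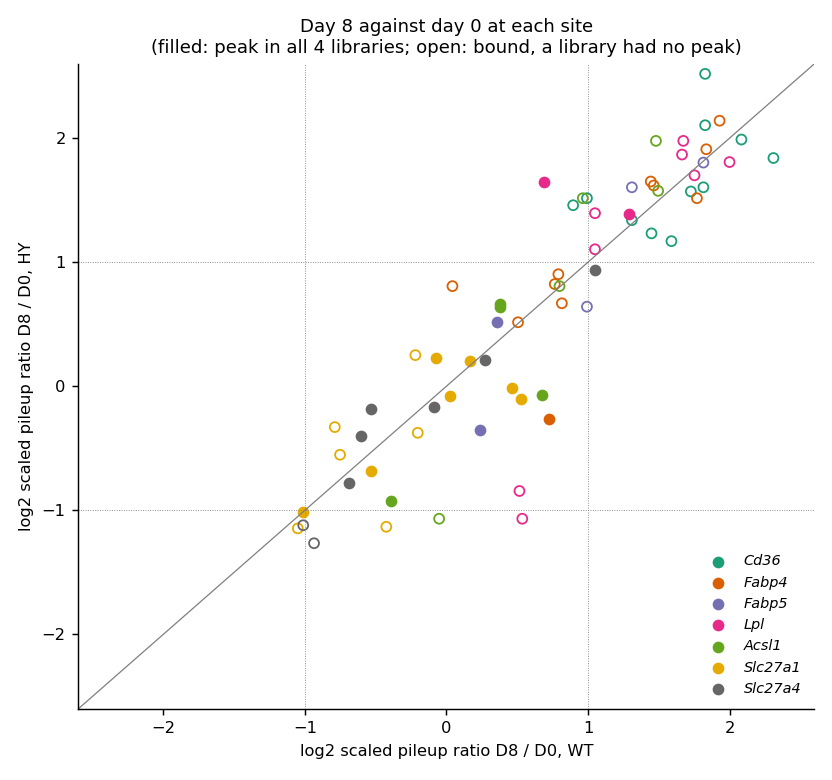
Log2 of the scaled D8 to D0 pileup ratio in WT (x axis) and HY (y axis) for each site with a ratio in both, coloured by gene. Filled points had a peak in all 4 libraries, open points are bounds, dotted lines mark 2-fold changes and the diagonal marks equal ratios. The 31 sites opened in both genotypes lie toward the upper right, 23 of them beyond 2-fold in both. Points of Slc27a1 and Slc27a4 lie around 0 and the lower left, except the Slc27a4 site in an intron of Trub2, at the upper right.

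The bases within 100 bp of each site's highest summit were searched on both strands for the letters of factors known from adipocytes. C/EBP was searched as TTGCNNAA and AP-1 as TGANTCA. PPAR:RXR was searched as AGGTCA, 1 base of any kind and AGGTCA with up to 2 mismatches, EBF as TCCC, 2 bases and GGGA with up to 1 mismatch, NFI as TGGC, 5 bases and GCCA with up to 1 mismatch, and the glucocorticoid receptor (GR) as AGAACA, 3 bases and TGTTCT with up to 2 mismatches. Of the 31 sites opened in both genotypes near the 7 genes, 9 held the C/EBP letters (29.0%), against 27.2% of the opened sites of the genome, 9.18% of sites open in all 4 libraries and 11.4% of all 102600 sites with a full window. Near the 7 genes themselves, the sites open in all 4 libraries held them in 5 of 22 (22.7%), so the contrast with the opened sites was smaller there. PPAR:RXR letters were found in 3 of the 31 (9.68%), against 7.59%, 2.36% and 3.10% of the 3 genome-wide groups in the same order. AP-1 letters were found in 1 of the 31 (3.23%), against 6.99%, 15.6% and 21.8%. EBF (16.1%), NFI (19.4%) and GR (3.23%) shares were close to those of the opened sites of the genome, at 19.6%, 20.6% and 2.16%. The sites near these genes thus resembled other opened sites in C/EBP and PPAR:RXR letters. The PPAR:RXR matches were at the Cd36 promoter, 35510 bp upstream of Cd36 and in the Acsl1 intron. The median GC content of these windows was 45.8%, against 49.8% in opened sites of the genome and 57.2% in sites open in all 4 libraries. Motif letters can overlap each other and are no evidence of binding.

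**Figure D5:**
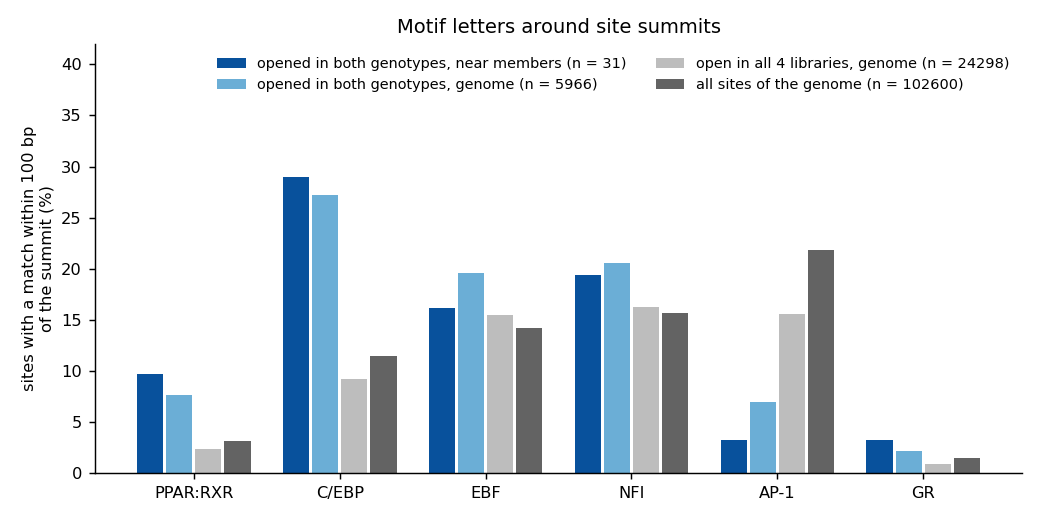
Share of sites (y axis, percent) with a match to each motif (x axis) within 100 bp of the summit, for the 31 opened sites near the 7 genes, the opened sites of the genome, the sites open in all 4 libraries and all sites. For C/EBP and PPAR:RXR the first 2 bars exceed the other 2, and for AP-1 they are lower, at 3.23% and 6.99%.

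Other genes of fatty acid handling were counted in the same way. Of 29 such genes, 18 (62.1%) had at least 1 site opened in both genotypes within 50 kb, against 27.7% of all protein-coding genes, and 24 (82.8%) had at least 1 closed in both, against 65.1%. A site opened in both genotypes was also found at 11 of 12 adipocyte, 6 of 10 preadipocyte, 4 of 8 macrophage and 3 of 6 liver markers, so shares above 27.7% were not confined to genes of fatty acid handling. Endothelial markers, at 2 of 8 (25.0%), and skeletal muscle markers, at 1 of 6 (16.7%), were below that share. The binding protein genes Fabp12 and Fabp9 had 11 and 9 opened sites, but they lie beside Fabp4 and share sites with it. Scarb1, a lipoprotein receptor of the CD36 family, had 6, and Angptl4, a secreted inhibitor of lipoprotein lipase, had 4. The acyl-CoA synthetase gene Acsl5, the acyl-CoA-binding protein gene Dbi and Apoc2, the activator of lipoprotein lipase, had 3 each. Fabp1, Fabp3, Slc27a6, Acsbg1, Cav1, Cav2 and Ptrf had 2 each, and Slc27a2, Acsl6, Got2 and Lipa had 1 each. The other 11 had no site opened in both genotypes. Some of them had sites opened in a single genotype, such as Vldlr with 3 in WT and the transporter gene Slc27a3 with 2 in HY cells, while Gpihbp1, the capillary anchor of lipoprotein lipase, and Slc27a5 had none in either. Promoter peaks were present in 18 of the 29 at WT D0 (62.1%, all protein-coding genes 53.4%), 14 at WT D8 (48.3%, 49.5%), 18 at HY D0 (62.1%, 54.3%) and 15 at HY D8 (51.7%, 50.4%).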

How the data were processed

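ATAC-seq of 4 im-scWAT libraries (1 per genotype and day) was analysed from the deposited narrowPeak lists. Per the labels, the authors' tools include Bowtie2, SAMtools, Picard and deepTools with the mm9 assembly, and versions are not given in the sources used here. The study's methods describe trimming, alignment, removal of PCR duplicates and MACS3 for ChIP-seq, with the same procedure for ATAC-seq. The calling threshold and any Tn5 shift are not given, and the lowest deposited −log10 q was 1.30. Peaks were called per library.

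The deposited values are a fold enrichment (a linear ratio of tags to local background), −log10 p, −log10 q and an integer score, which was not used. From the deposited fold and −log10 p, the whole-number summit pileup and its background were solved for 100.0% of peaks (tolerance 0.002 on −log10 p). Peaks of different lists formed 1 site where they shared at least 50% of the shorter peak. TSSs came from GENCODE vM1 on NCBIM37, and 0 of 21 chromosomes had a peak beyond its end. Relative depths were 1.00, 0.806, 1.07 and 0.750 for WT D0, WT D8, HY D0 and HY D8. Pileup intervals are exact Poisson and ratio intervals are conditional Clopper-Pearson, both at 95%, and cover counting error only. With 1 library per group no comparison has replicates, no test was run and no p-value was computed. The scripts were tested on simulated peaks. The 7 genes, the gene lists and the comparisons were chosen with earlier results of these data known. By rule, the sites described per gene included its promoter sites and the sites whose genotype ratio lay farthest from 1. They also included up to 4 opened sites, up to 2 closed sites and up to 2 other sites open in all 4 libraries, each taken by height. Further sites outside this rule were described too, such as the Cd36 sites farther from a promoter, and these were not taken by height. Alternatives were other overlap rules, stricter or equally long peak lists, a 20 kb window, scaling by the median pileup ratio, a 3-fold threshold, and folds only where both libraries had a peak. Python 3.11.15, NumPy 2.4.6, pandas 2.3.3, SciPy 1.17.1 and matplotlib 3.10.9 were used.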

Additional observations from a re-analysis of the deposited data

Results flagged for a closer look

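At the site 42572 bp upstream of Lpl the genotypes moved in opposite directions between days. The D8 to D0 ratio was at least 1.45 in WT cells (no peak at D0, 7 tags at D8) and at most 0.477 in HY cells (12 tags at D0, no peak at D8). The corresponding ratio of HY to WT was at least 2.23 at D0 and at most 0.767 at D8. All 4 values are bounds on low summits, the intervals of all 4 included 1, and the difference between genotypes was not tested.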

How the results depend on the processing

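Of 48 alternative values for 16 counts of sites near the 7 genes, 27 stayed within 1.5 times the reported count and 21 did not. The counts of opened sites stayed within that range under each alternative run on them. With peaks joined only where they shared at least 50% of both, closed sites rose from 9 to 19 in WT and from 15 to 24 in HY cells. With lists shortened to 41228 peaks each, HY closed sites numbered 6, HY-only sites 2 at D0 and 8 at D8 (WT-only sites 2 and 10), and within 20 kb HY closed sites numbered 9. Counted only where both libraries had a peak, 2-fold higher sites at D8 fell to 3 in WT and 2 in HY cells, 2-fold lower sites to 1 and 3, and both D0 genotype counts to 0, since most reported folds are bounds. At 3-fold, 15 WT and 17 HY sites were higher at D8 and 0 lower in each. Scaling by the median pileup ratio (0.722 for WT D8, 1.13 for HY D0, 0.750 for HY D8) gave 0 WT and 4 HY lower sites at D8, 1 higher and 2 lower in HY at D0, and 1 lower in HY at D8. Beyond these constructions the cause was not tested. No paired analysis was possible because each group has 1 library and the labels carry no replicate numbers. Depth limits the calls: the smallest summit that could be called was 4 to 5 tags, and more where the local background was high.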
